A study of Rattus norvegicus with 16 samples.

Results

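Rat plantaris muscle after 28 days of overload was compared with the same muscle after 3 days of overload. Both groups came from Sprague Dawley rats labelled as retired breeders, and in both the Achilles tendons had been excised on both sides, which leaves the plantaris to carry load that the gastrocnemius and soleus normally share. Each day had 4 arrays, so the comparison used 8 of the 16 arrays of the series, and was described across 14557 genes. A gene entered where a transcript cluster of the Affymetrix Rat Gene 2.1 ST array was annotated with exactly 1 symbol, and the cluster with the highest mean stood for a gene with several. The other 8 arrays held 4 control muscles without overload (day 0) and 4 muscles at day 7. They shared the estimate of the spread, and their levels are given only to place the pair of days. No sham surgery was labelled, so load, injury and healing cannot be told apart. The labels number the replicates without saying that they are separate animals, so p-values measure only how far these samples vary, and that variation may be technical. Neither sex nor age in time units was given.

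Synergist ablation is a textbook model of muscle growth. In the first days the loaded muscle takes in immune cells, and satellite cells and connective tissue cells divide. Later the fibres enlarge, rebuild sarcomeres and mitochondria, and shift toward slower contractile proteins. Comparing an early with a late day of the same load asks which transcripts were higher early and which late, without using the unloaded muscle as the reference. By itself the comparison does not separate a return toward the unloaded level from a change of the adapted muscle.

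Every level is a deposited log2 value of whole-muscle RNA, and every difference is the day 28 mean minus the day 3 mean on that log2 scale, ± its SE from limma, with 4 arrays at each day. A difference of 1 is 2-fold. A gene is called, and said to have risen or fallen, at a Benjamini-Hochberg adjusted p under 0.05 over all 14557 genes. Where the lower of the 2 means lay under that day's median of all clusters on the array (3.22 at day 3, 3.32 at day 28) the gene is called dim there and its difference is a lower bound. In RNA from a whole muscle, fewer cells of a type and less RNA per cell cannot be told apart. The tissue label was checked first. Ckm, Acta1, Mb, Tnnt3 and Myh4, defining genes of skeletal muscle fibres, lay at or above the 99.3rd percentile of genes on all 8 arrays. The arrays of the 2 days lay apart on the first principal component, at 45.0 to 65.8 for day 3 and -29.4 to -18.0 for day 28, and no array lay with the other day.

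Of the 14557 genes, 4759 (32.7%) were called, 2314 higher at day 28 (15.9%) and 2445 lower (16.8%). Counts in the gene lists below are to be read beside these shares. Falls were the larger changes. At least 2-fold, 1118 genes were called lower (7.68%) and 516 higher (3.54%). At least 4-fold, 338 were lower and 33 higher, and at least 8-fold, 73 were lower and 1 was higher, Tecrl, which was named after its value was seen. The 4 arrays of day 28 did not overlap the 4 of day 3 in 4635 genes (31.8%). The median gene differed by 0.02. Subtracting from each array the median of its tested genes moved that median by 0.21 and raised the share of called genes that were higher from 48.6% to 70.3%. Centring on the brighter 50% moved it by 0.09 and gave 58.6%. The split between rises and falls therefore depended on the scaling.

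**Figure D1:**
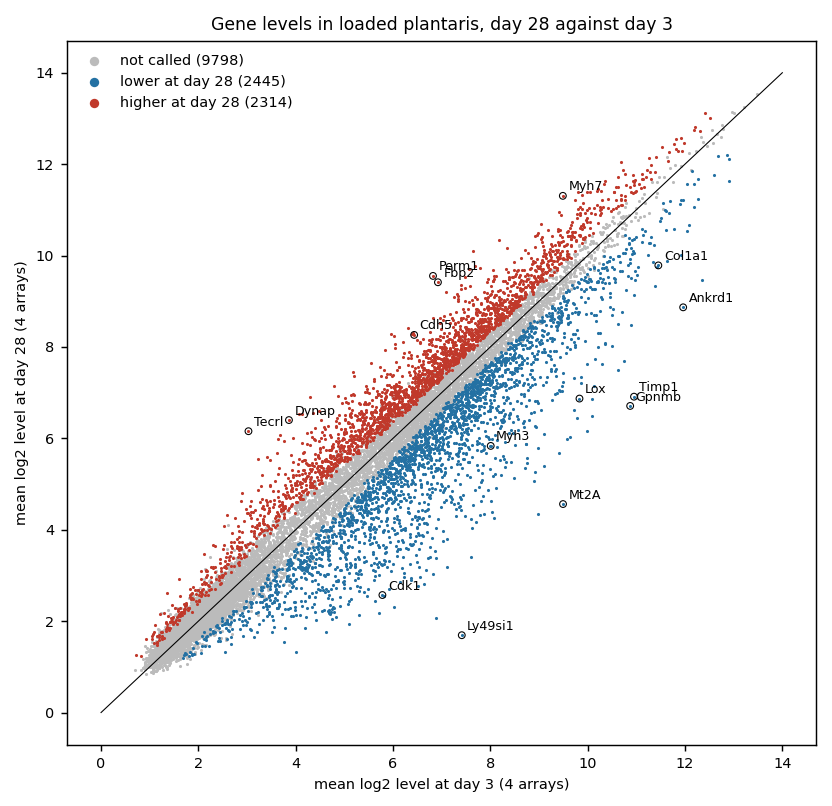
Mean log2 level of each of 14557 genes at day 28 (vertical axis) against day 3 (horizontal axis), 4 arrays each, with the line of equal levels. Genes called lower at day 28 (2445, blue) reach farther from the line than those called higher (2314, red), and circled genes are named in the text.

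The day 7 arrays took no part in the contrast. Their mean lay between those of day 3 and day 28 in 83.1% of the genes called lower and in 81.5% of those called higher, against 49.1% of all genes tested. Called genes were picked for a wide gap between those 2 days, while the median absolute difference over all genes was 0.28. A higher share among called genes follows from that choice, so the shares do not show a steady course. Over the genes called lower, the median level was 5.24, 6.77, 6.16 and 5.62 at days 0, 3, 7 and 28. Over those called higher it was 7.31, 6.49, 6.83 and 7.22. Day 7 was nearer to day 28 than to day 3 in 54.8% of the genes called lower and in 38.1% of those called higher.

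The 15 genes with the largest measured falls had varied roles. Ly49si1, of a family of lectin-like receptors of natural killer cells, read 7.27, 7.71, 6.95 and 7.72 at day 3 and 2.35, 1.68, 1.60 and 1.14 at day 28. All 4 day 28 arrays lay far under the day 3 arrays, and the fall of 5.72 ± 0.30 is a lower bound. Mt2A, a metallothionein that binds zinc and copper, fell by 4.93 ± 0.43, a 30.5-fold difference. Both belong to families of near-identical genes, so how far their probes read 1 family member is uncertain. Sh2d1b, a signalling adaptor of natural killer cells, fell by 4.82 ± 0.29 and was dim at day 28, and Lilrb4, an inhibitory receptor of myeloid cells, fell by 4.62 ± 0.22. Cd8a, a co-receptor chain that rat natural killer cells and macrophages carry as well as T cells, fell by 4.19 ± 0.22. Gpnmb, a glycoprotein of lipid-laden and phagocytic macrophages, fell by 4.16 ± 0.18. Timp1, an inhibitor of matrix metalloproteases, fell by 4.04 ± 0.32. The next were Ptx3, a secreted pattern recognition protein (-3.92), Cd68 (-3.83), the metallothionein Mt1f (-3.82), the protease inhibitor Slpi (-3.82), and Rrad, a small GTPase that restrains calcium channels (-3.81). Cx3cr1, the fractalkine receptor (-3.79), Vav1, an exchange factor of blood cells (-3.74), and the myeloid lectin Clec4a3 (-3.73), completed the 15 largest. Of these 15, Ly49si1, Sh2d1b, Ptx3, Slpi, Cx3cr1 and Vav1 were dim at day 28, so their order is not settled.

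The 15 genes with the largest measured rises were likewise varied in role. Tecrl, related to enzymes of fatty acid elongation, read 3.59, 2.67, 2.52 and 3.35 at day 3 and 5.87, 5.52, 6.64 and 6.60 at day 28. It rose by 3.13 ± 0.33, a lower bound. Perm1, a muscle regulator of mitochondrial and contractile genes, read 7.00, 6.74, 6.84 and 6.70 at day 3 and 9.35, 9.43, 9.43 and 9.99 at day 28. Every day 28 array of Perm1 stood above every day 3 array, the fourth day 28 array highest, and the rise was 2.73 ± 0.33 (adjusted p = 5.94e-06). Lgi1, a secreted protein best known at synapses of the brain, rose by 2.60 ± 0.33. Fbp2, the fructose bisphosphatase of muscle, rose by 2.49 ± 0.33. Ostn, which encodes the secreted muscle peptide musclin, rose by 2.44 ± 0.46, and Col6a6, a collagen VI chain, by 2.38 ± 0.26. G0s2, an inhibitor of the lipase that opens fat droplets, rose by 2.36 ± 0.35, and Nmrk2, a nicotinamide riboside kinase of muscle, by 2.29 ± 0.37. Others of the 15 largest were Dynap (2.54), Lrrc3b (2.47), Cyyr1 (2.40), the slow myosin Myh7b (2.34), the aldo-keto reductase Akr1b10 (2.33), Sec14l5 (2.31) and the glycolytic regulator Pfkfb1 (2.22).

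**Figure D2:**
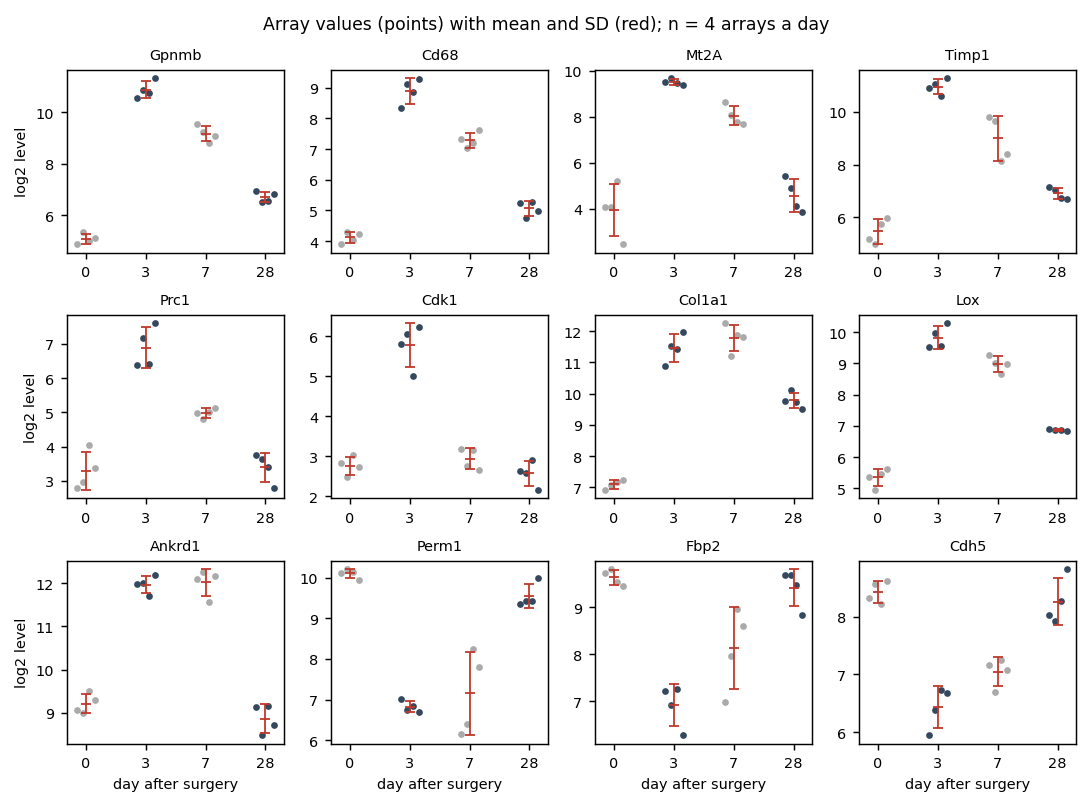
Log2 level of 12 genes on each of the 16 arrays by day after surgery, with the mean and SD of the 4 arrays of a day in red. Dark points are the arrays of days 3 and 28, which do not overlap in any of the 12 genes, and grey points are those of days 0 and 7.

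Macrophages clear debris after muscle injury and release signals that act on satellite cells and fibroblasts. Of the macrophage and monocyte markers, 27 of 28 measured members were called lower and 0 higher, beside 16.8% of all genes tested called lower and 15.9% higher, with a median difference of -2.94 against 0.02 over all genes. Cd68, a lysosomal glycoprotein of macrophages, read 8.33, 9.14, 8.87 and 9.27 at day 3 and 5.24, 4.76, 5.29 and 4.99 at day 28. The 2 sets lay more than 3 units apart, and the fall was 3.83 ± 0.19 (adjusted p = 1.17e-09). Gpnmb read 10.56, 10.86, 10.74 and 11.33 at day 3 against 6.94, 6.52, 6.55 and 6.83 at day 28, again with no overlap. The scavenger receptor Msr1 (-3.65), the antibody receptor Fcgr1a (-3.61), the signalling adaptor Tyrobp (-3.58) and the myeloid transcription factor Spi1 (-3.37) fell likewise. Csf1r, the receptor that keeps macrophages alive, fell by 2.34 ± 0.18, and Ccr2, which draws monocytes from the blood, by 2.94 ± 0.24. The smallest fall was that of Marco, a scavenger receptor that was dim at day 28 (-0.53). Timd4, a marker of resident macrophages, was the member not called (-0.61 ± 0.28, adjusted p = 0.109). The median level of the list was 4.32, 8.54, 6.95 and 5.42 at days 0, 3, 7 and 28. Summed on the linear scale, the list's level ran from 15269 to 20909 at day 3 and 1938 to 2694 at day 28. At day 28 Itgax, Fcgr3a, Cx3cr1, Marco and Vsig4 were dim, while Cd68, Cd14 and Csf1r were not.

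Chemokines and cytokines guide and instruct these cells. Among them 21 of 38 measured members were called lower and 2 higher (median -0.75). Ccl2, the main attractant of monocytes, read 8.80, 8.97, 8.51 and 8.57 at day 3 and 5.32, 4.95, 5.77 and 5.36 at day 28, and fell by 3.36 ± 0.30. No array of day 28 came near the day 3 range. Il18 (-3.53), the related attractant Ccl7 (-3.17) and Cxcl13, which attracts B cells (-2.48), fell as well. Il1rn, the natural antagonist of interleukin 1, fell by 3.57 ± 0.33, and Il6, a cytokine that muscle also secretes, by 2.57 ± 0.34, both dim at day 28. Tgfb1, a driver of matrix synthesis, fell by 1.97 ± 0.18. Of the list, 9 members were dim on both days. The members that rose were Il15, a cytokine abundant in muscle fibres, and Cx3cl1, the ligand of Cx3cr1. Il15 read 6.38, 5.62, 6.81 and 6.02 at day 3 and 7.63, 8.09, 7.96 and 7.46 at day 28, a rise of 1.58 ± 0.27. Cx3cl1 rose by 0.93 ± 0.27, or by 0.61 without day 3 replicate 4. Its receptor Cx3cr1 moved the other way, from 6.82 to 3.03.

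Lists of other immune cells and of complement ranged from mostly lower to not called. Of the genes for MHC class II and dendritic cells, which present antigen, 12 of 18 measured members were called lower and 0 higher, led by the lectin Clec10a (-2.68) and the receptor Flt3 (-2.41). Among complement genes 9 of 10 measured members were called lower and 0 higher, with C3ar1 (-3.01) and the chains C1qa (-2.40) and C1qb (-2.39) in front. In lymphocytes and natural killer cells 4 of 20 measured members were called lower and 1 higher. Those lower were Cd8a, Cd8b (-2.68), Cd2 (-1.16) and Cd4 (-1.13), the last also carried by rat macrophages, while Cd6 rose by 1.04 ± 0.22. The T cell receptor chains Cd3d and Cd3e were dim on both days, and Cd3g was not called (-0.65 ± 0.37, adjusted p = 0.204). For neutrophils 2 of 13 measured members were called lower and 0 higher, the receptor Csf3r (-2.17) and Retnlg (-1.46), and 11 of the 13 were dim on both days. Both the lymphocyte and the neutrophil counts lie near the 16.8% called lower among all genes, so neither sets its list apart from genes in general. In the lymphocyte and natural killer list 11 of the 20 were dim on both days too. With so many dim members, neither count can show whether those cells changed. Interferon-induced genes gave 6 falls among 17, 3 of them in antigen processing: Psmb8 (-1.60), Psmb9 (-1.30) and Tap1 (-1.15). No mast cell marker of 8 was called, but 5 of the 8 were dim on both days. None of 5 red blood cell genes was called either (2 were called lower without day 3 replicate 2), and the median of that list changed sign without day 3 replicate 3.

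Genes that phagocytes use heavily, though other cells use them too, fell on the same arrays. Of the lysosome and phagosome genes, 17 of 20 measured members were called lower and 0 higher (median -0.97). Grn, a lysosomal growth factor precursor, fell by 2.27 ± 0.14, the proteases Ctsb by 1.89 ± 0.12 and Ctsl by 1.82 ± 0.17, and the protective protein Ctsa by 1.69 ± 0.13. In the list of membrane repair and actin remodelling, 17 of 19 measured members were called lower and 1 higher (median -1.52). Cotl1 (-3.46), Lcp1 (-3.06) and Coro1a (-2.98), actin-binding proteins of white blood cells, led it, followed by the actin-capping Capg (-2.36). Vim, the intermediate filament of mesenchymal and immune cells, fell by 1.52 ± 0.14, and the membrane-binding annexins Anxa1 and Anxa5 by 1.60 ± 0.18 and 1.32 ± 0.14. Trim72, which seals membrane tears in muscle fibres, was the member called higher (0.53 ± 0.18), a call lost without day 3 replicate 2 or 4 or day 28 replicate 4, with differences of 0.53, 0.50 and 0.40. Under cyclic loess it was also lost (0.37, adjusted p = 0.146). The summed macrophage level given above moved with both lists, and its part in them was not tested.

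The metallothionein and oxidative stress genes were mixed. Of 16 measured members, 8 fell and 2 rose, or 4 rose when centred on all genes. Mt2A read 9.49, 9.68, 9.44 and 9.37 at day 3 and 5.40, 4.88, 4.13 and 3.84 at day 28. Day 3 arrays were tightly grouped, day 28 arrays were spread over more than 1 unit, and the groups were far apart. Hmox1, which breaks down haem, fell by 3.35 ± 0.29, Cyba, a subunit of the phagocyte oxidase, by 2.86 ± 0.18, and Gpx1, a glutathione peroxidase, by 1.10 ± 0.13. Sod3, the extracellular superoxide dismutase, rose by 1.06 ± 0.17. Cat, catalase, rose by 0.44 ± 0.15, a call lost without day 3 replicate 1, 2 or 4 or day 28 replicate 1 or 2. It was also lost when only days 3 and 28 were fitted (0.44, adjusted p = 0.0731) and under cyclic loess (0.16, adjusted p = 0.454). Metallothionein genes are classically switched on by metals through short metal response elements. The 300 bases from 250 before to 50 after the start of Mt2A, from RefSeq on build GRCr8, are shown because Mt2A had the largest fall among the named genes that were not dim. Capitals mark the core TGCACNC or TGCGCNC on either strand.
Mt2A, chr19:10838659-10838958 (- strand): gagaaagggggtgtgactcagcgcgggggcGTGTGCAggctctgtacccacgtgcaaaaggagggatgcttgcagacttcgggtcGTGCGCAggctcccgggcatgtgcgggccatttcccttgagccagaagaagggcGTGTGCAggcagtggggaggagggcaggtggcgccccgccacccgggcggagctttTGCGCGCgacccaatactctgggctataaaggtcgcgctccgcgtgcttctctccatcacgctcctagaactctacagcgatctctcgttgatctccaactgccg
The core occurs 4 times in this window, starting at -220, -165, -111 and -55 from the start site. It was found in 30.2% of the 11787 promoters of genes tested that the table held, so 1 match by itself is common. Promoters of the metallothionein and oxidative stress list held it in 4 of 13 (30.8%), and those of cell cycle genes in 10 of 19 (52.6%). How often a promoter holds 4 copies was not counted.

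Cell division genes were mostly lower at day 28 than at day 3, and the median of the mitosis list came near the array background. Of the cell cycle and mitosis genes, 24 of 24 measured members were called lower and 0 higher (median -2.70), and of the DNA replication genes 24 of 27 measured members were called lower and 1 higher (median -0.98). Prc1, which bundles microtubules between separating chromosomes, read 6.38, 7.16, 6.41 and 7.59 at day 3 and 3.77, 3.62, 3.39 and 2.78 at day 28, a fall of 3.49 ± 0.29 (adjusted p = 9.02e-08). Cdk1, the kinase that starts mitosis, read 5.82, 6.06, 5.01 and 6.24 at day 3 and 2.64, 2.58, 2.90 and 2.16 at day 28. In both genes the third day 3 array was the lowest or near the lowest of its day, and no arrays overlapped. Ttk, a kinase of the spindle checkpoint, fell by 3.71 ± 0.25, the cell division gene Cdca3 by 3.53 ± 0.24, and the cyclins Ccna2 by 3.37 ± 0.32 and Ccnb1 by 3.18 ± 0.23. Rrm2, the regulated subunit of ribonucleotide reductase, read 7.40, 7.65, 7.08 and 8.36 at day 3 and 4.56, 2.82, 4.26 and 4.53 at day 28, where the second array was the lowest. The replicative helicase subunits Mcm6 (-3.27) and Mcm3 (-2.44) fell with it. Dut, a nucleotide hydrolase, was the member called higher (0.49 ± 0.18), and that call was lost without day 3 replicate 1, 3 or 4 or day 28 replicate 1, 2 or 3, which gave as little as 0.35, with array weights and when only days 3 and 28 were fitted. The median level of the cell cycle list was 3.22, 6.16, 3.99 and 3.35 at days 0, 3, 7 and 28. That of the replication list was 4.55, 6.25, 4.93 and 4.81, so it stayed above the background. At day 28 12 of the 24 cell cycle members were dim, so many of their falls are lower bounds. Day 7 was nearer to day 28 in 23 of the 24, and in 24 of the 24 replication genes that fell, beside 54.8% of all genes called lower. Which cells were dividing cannot be read from whole muscle.

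Promoters of mitotic genes often carry CCAAT boxes and a cell cycle homology region, bound by the NF-Y and DREAM complexes. Among the 24 cell cycle members, 19 had a promoter in the RefSeq table. CCAAT on either strand occurred in 13 of them (68.4%), against 38.0% of the promoters of genes tested, and TTTGAA on either strand in 11 (57.9%), against 16.3%. Both occurred in 9, overlapping in 0, against 6.59% of promoters of genes tested with both. In the 24 replication genes with a promoter, TTTGAA occurred in 1 (4.17%) and CCAAT in 14 (58.3%). Over the 2017 promoters of all genes called lower, TTTGAA occurred in 14.7% and CCAAT in 38.4%, close to the shares of genes tested. The motifs therefore describe the cell cycle list and not the falls in general. Shown are 2 promoters with both motifs and 1 with CCAAT alone, of genes that fell by over 3 units, 300 bases each on GRCr8, with both motifs in capitals.
Cdk1, chr20:19265043-19265342 (+ strand): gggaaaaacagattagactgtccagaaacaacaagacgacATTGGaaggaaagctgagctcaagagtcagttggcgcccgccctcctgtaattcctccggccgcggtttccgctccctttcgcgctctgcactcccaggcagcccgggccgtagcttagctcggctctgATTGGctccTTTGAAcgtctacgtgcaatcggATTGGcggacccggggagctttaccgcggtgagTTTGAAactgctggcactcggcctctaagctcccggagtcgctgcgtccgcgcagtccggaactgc
Prc1, chr1:143659231-143659530 (+ strand): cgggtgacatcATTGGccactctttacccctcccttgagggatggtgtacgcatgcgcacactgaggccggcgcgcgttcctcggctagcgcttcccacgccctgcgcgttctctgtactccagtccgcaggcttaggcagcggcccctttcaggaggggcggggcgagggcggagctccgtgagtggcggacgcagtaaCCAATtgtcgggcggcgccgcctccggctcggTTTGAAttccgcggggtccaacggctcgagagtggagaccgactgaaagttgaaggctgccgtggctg
Cdca3, chr4:159320953-159321252 (+ strand): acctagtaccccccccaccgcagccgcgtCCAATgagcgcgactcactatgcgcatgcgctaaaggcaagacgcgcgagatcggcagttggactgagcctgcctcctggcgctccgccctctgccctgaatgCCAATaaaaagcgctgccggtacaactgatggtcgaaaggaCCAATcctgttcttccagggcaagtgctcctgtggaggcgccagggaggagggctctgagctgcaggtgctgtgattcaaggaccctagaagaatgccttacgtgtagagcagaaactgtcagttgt
In Cdk1 CCAAT starts at -210, -81 and -49 and TTTGAA at -72 and -16. In Prc1 CCAAT starts at -239 and -50 and TTTGAA at -18. Cdca3 holds CCAAT at -221, -118 and -77. A match describes letters in the window, not binding.

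**Figure D3:**
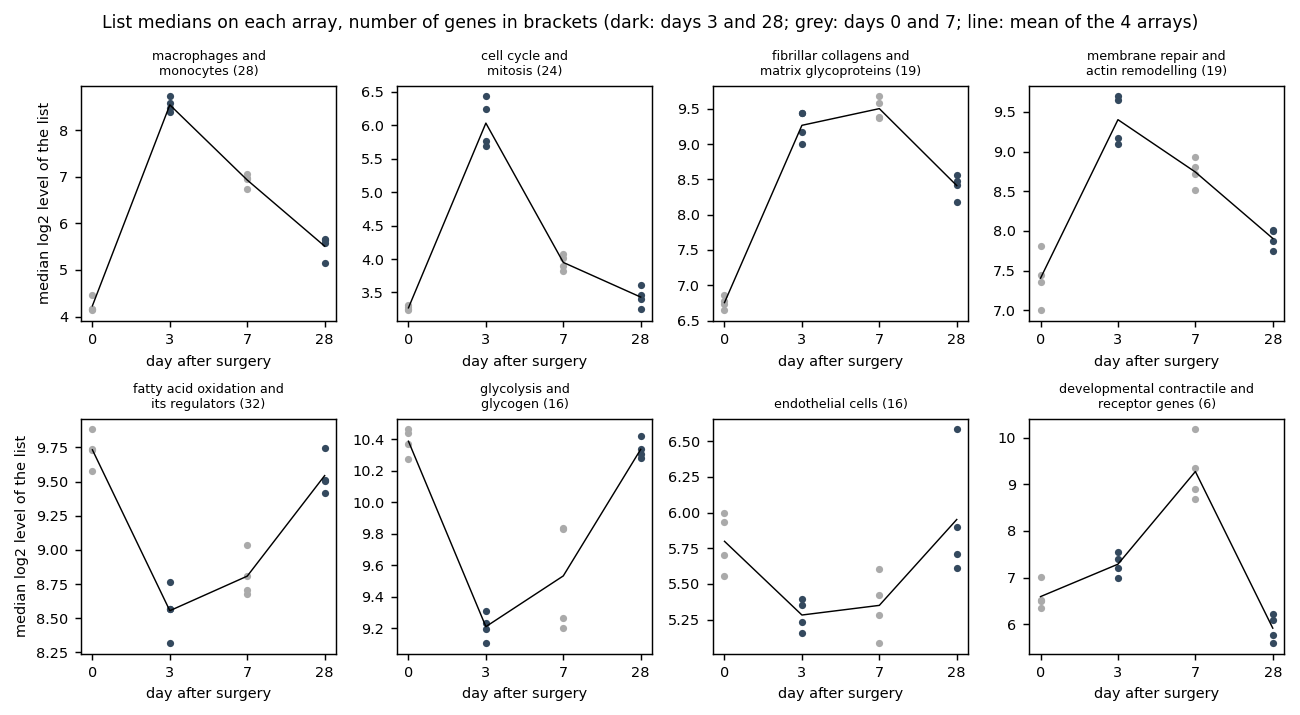
Median log2 level of the measured members of 8 gene lists on each of the 16 arrays, by day after surgery, with a line through the mean of the 4 arrays of a day. Macrophage, cell cycle and actin remodelling lists peak at day 3, collagens and developmental genes are highest at day 7, and the metabolic lists are lowest at day 3.

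Fibrillar collagens and matrix glycoproteins were mostly lower at day 28 than at day 3, with day 7 mostly near day 3. Among collagen chains outside this list, Col6a6 and Col15a1 rose and Col4a1 fell. Fibrillar collagens give tendon and muscle connective tissue its tensile strength, and cross-linking enzymes join them. In the list of fibrillar collagens with matrix glycoproteins, 17 of 19 measured members were called lower and 0 higher (median -1.40). Col1a1 read 10.88, 11.52, 11.44 and 11.97 at day 3 and 9.77, 10.11, 9.75 and 9.51 at day 28, all of the latter below all of the former, a fall of 1.67 ± 0.22 (adjusted p = 1.42e-05). Its means were 7.11 at day 0 and 11.78 at day 7. Col3a1 fell by 1.41 ± 0.16, the matrix protein Postn by 1.78 ± 0.20, Col8a1 by 2.57 ± 0.18, and Cthrc1, a secreted protein of collagen-making fibroblasts, by 3.15 ± 0.28. Eln, elastin, was not called (0.18 ± 0.33, adjusted p = 0.738), nor was Col11a1 (-0.37 ± 0.40, adjusted p = 0.541). The median level of the list was 6.75, 9.32, 9.48 and 8.49 at days 0, 3, 7 and 28. Only 1 of its 17 falling members had a day 7 level nearer to day 28.

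In the list of matrix proteases, their inhibitors and cross-linkers, 15 of 28 measured members were called lower and 3 higher. Lox, which oxidises lysines so that collagens can cross-link, read 9.53, 9.97, 9.55 and 10.28 at day 3 and 6.90, 6.86, 6.87 and 6.84 at day 28, where the 4 arrays were nearly equal. It fell by 2.96 ± 0.18. Timp1 read 10.89, 11.06, 10.59 and 11.28 at day 3 and 7.14, 7.05, 6.74 and 6.72 at day 28. Its relatives went the other way, Timp3 rising by 1.62 ± 0.19 and Timp4 by 1.69 ± 0.21. The membrane protease Adam12 (-2.68), the metalloprotease Mmp19 (-2.44), the prolyl hydroxylase P4ha3 (-2.16) and the lysyl hydroxylase Plod2 (-1.98) fell, while Mmp2, a gelatinase, was not called (-0.12 ± 0.13, adjusted p = 0.54). Day 7 was nearer to day 28 in 0 of the 15 members that fell.

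The small proteoglycans that space collagen fibrils did not move as a block. Among proteoglycan and hyaluronan genes 6 of 16 measured members were called lower and 2 higher, beside 16.8% and 15.9% of all genes. The sign of the list's median depended on the scaling. Lum, lumican, fell by 2.49 ± 0.22, Bgn, biglycan, by 1.56 ± 0.18, and the lubricating Prg4 by 1.82 ± 0.16. Has1 and Has2, which make hyaluronan, fell by 2.31 ± 0.52 and 1.59 ± 0.28. Kera, keratocan, rose by 1.30 ± 0.43 (adjusted p = 0.0271), but the call was lost without day 3 replicate 2 or 4 or day 28 replicate 3 or 4, with differences of 1.03 to 1.18. Omd, osteomodulin, rose by 0.89 ± 0.29, or by 0.58 with no call without day 3 replicate 4, and by 0.76 with no call without day 28 replicate 1. Dcn, decorin, was not called (-0.14 ± 0.12, adjusted p = 0.45). Of 9 basement membrane genes, Col4a1 fell by 0.93 ± 0.18 (3 of the 9 fell without day 3 replicate 1), whereas Col15a1 (0.88), Lama2 (0.70) and Lamb2 (0.49) rose, the last losing its call without day 3 replicate 1 or 4 or day 28 replicate 2.

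Markers of connective tissue cells changed in part. For fibroblasts and fibro-adipogenic progenitors 5 of 13 measured members were called lower and 1 higher, and for tenocytes 4 of 11 measured members were called lower and 1 higher, or 3 higher without day 28 replicate 2 and 0 higher without day 3 replicate 4 or day 28 replicate 3 or 4. In both lists the sign of the median changed with an alternative setting. Beside these counts, 16.8% of all genes were called lower and 15.9% higher. S100a4, a calcium-binding protein of fibroblasts and macrophages, fell by 2.66 ± 0.21, Thy1 by 1.71 ± 0.31, and Pdgfra, the receptor that defines fibro-adipogenic progenitors, by 1.04 ± 0.13. Pdgfrb (0.04 ± 0.18, adjusted p = 0.9) and Dpt (-0.13 ± 0.12, adjusted p = 0.472) were not called, and Cd34 rose by 0.75 ± 0.13. Thbs4, a matrix protein of tendon and muscle, fell by 1.74 ± 0.21, and Scx, the transcription factor of tendon cells, by 0.79 ± 0.21. The summed level of the fibroblast list ran from 5864 to 7193 at day 3 and 4283 to 4991 at day 28, and its part in the matrix changes was not tested.

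Contractile genes fell into separate patterns. Fast and slow fibres differ in their myosins, troponins and calcium pumps, and regenerating or newly fused fibres express developmental forms. Of 6 measured fast-fibre genes, 4 rose and 0 fell as deposited, but under cyclic loess 1 rose and 2, Tnnc2 and Tnnt3, fell. The fast list held 14 genes. The fast myosins Myh1 and Myh2, and Mylpf, Myl1, Tnni2, Pvalb, Mylk2 and the fast pump Atp2a1, were not measured. Myh4, the fastest myosin heavy chain, read 12.08, 11.16, 12.32 and 11.72 at day 3 and 12.55, 12.63, 12.75 and 12.25 at day 28. The days overlapped, the second day 3 array being the lowest, and the rise was 0.73 ± 0.21 (adjusted p = 0.0134). Without that array the difference was 0.50, adjusted p = 0.0535, and under cyclic loess 0.38, adjusted p = 0.161. Of 10 measured slow-fibre genes out of 15 listed, 6 rose and 2 fell, with Myl2 and Tnni1 among those not measured. Myh7, the slow myosin heavy chain, read 9.73, 9.20, 9.38 and 9.64 at day 3 and 10.60, 11.15, 11.52 and 11.96 at day 28. There was no overlap, and the rise was 1.82 ± 0.26 (adjusted p = 3.25e-05). The slow light chain Myl3 rose by 1.60 ± 0.17, the slow troponin Tnnt1 by 1.14 ± 0.18, and Myh7b by 2.34 ± 0.27. Tpm3, whose products include a slow-muscle and a cytoskeletal tropomyosin, fell by 1.41 ± 0.18. The median level of the fast list was 12.78, 12.17, 12.54 and 12.71 at days 0, 3, 7 and 28. That of the slow list was 10.20, 9.74, 10.20 and 10.71. Whether slow genes rose more than fast genes was not tested.

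Developmental contractile and receptor genes gave 4 falls and 0 rises among 6. Myh3, the embryonic myosin heavy chain, read 8.61, 7.77, 7.55 and 8.10 at day 3 and 6.05, 6.14, 5.40 and 5.75 at day 28, and fell by 2.17 ± 0.35 (adjusted p = 9.53e-05). Its means at days 0 and 7 were 8.45 and 11.05, so day 7 lay outside the range of the pair. Tnnt2, the troponin of heart and embryonic muscle, read 6.66, 6.96, 7.33 and 7.82 at day 3 and 6.10, 5.09, 5.19 and 5.15 at day 28, where the first array was the highest. It fell by 1.81 ± 0.32. Actg1, cytoplasmic actin, fell by 1.21 ± 0.12. Chrng, the fetal subunit of the acetylcholine receptor, fell by 0.62 ± 0.20, a call lost without day 3 replicate 2 or 4, without day 28 replicate 1 or 2, and under each of 3 rescalings. Its adult counterpart Chrne rose by 0.52 ± 0.15. The median level of the list was 6.59, 7.29, 9.34 and 5.89 at days 0, 3, 7 and 28.

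Of 16 sarcomere genes shared by fibre types, 9 rose and 0 fell as deposited, 14 rose when centred on all genes, and 4 fell under cyclic loess. The median level of the list was 11.7, 11.1, 11.4 and 11.4 at days 0, 3, 7 and 28. Myom2 (1.49 ± 0.18) and Myom1 (1.38 ± 0.17), which tie myosin filaments together at the M-band, the myosin-folding partner Smyd1 (1.17 ± 0.18) and the scaffold Mypn (1.01 ± 0.14) led. Acta1, skeletal actin, did not pass the test as deposited (0.05 ± 0.10, adjusted p = 0.762). Under cyclic loess it was called lower (-0.36, adjusted p = 0.0182) and centred on all genes it was called higher (0.26, adjusted p = 0.0497).

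Myogenic factors and satellite cell genes gave 5 rises and 6 falls among 21, beside 15.9% of all genes called higher and 16.8% lower. Myog, which drives differentiation of myoblasts, fell by 2.10 ± 0.27, and Myf6 by 0.98 ± 0.15. Cd82, a surface protein of satellite cells, fell by 1.63 ± 0.18. Notch3, which is also a pericyte gene, rose by 1.60 ± 0.19, and Mef2c, a transcription factor of mature fibres, by 0.86 ± 0.10. Myod1 (0.07 ± 0.23, adjusted p = 0.869) and Mymk, the membrane protein that fuses myoblasts (-0.75 ± 0.31, adjusted p = 0.072), were not called. For Mymk the means were 3.73 at day 3, 6.16 at day 7 and 2.97 at day 28, so its high level lay between the 2 days compared, and it was called lower without day 3 replicate 3 or day 28 replicate 3.

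**Figure D4:**
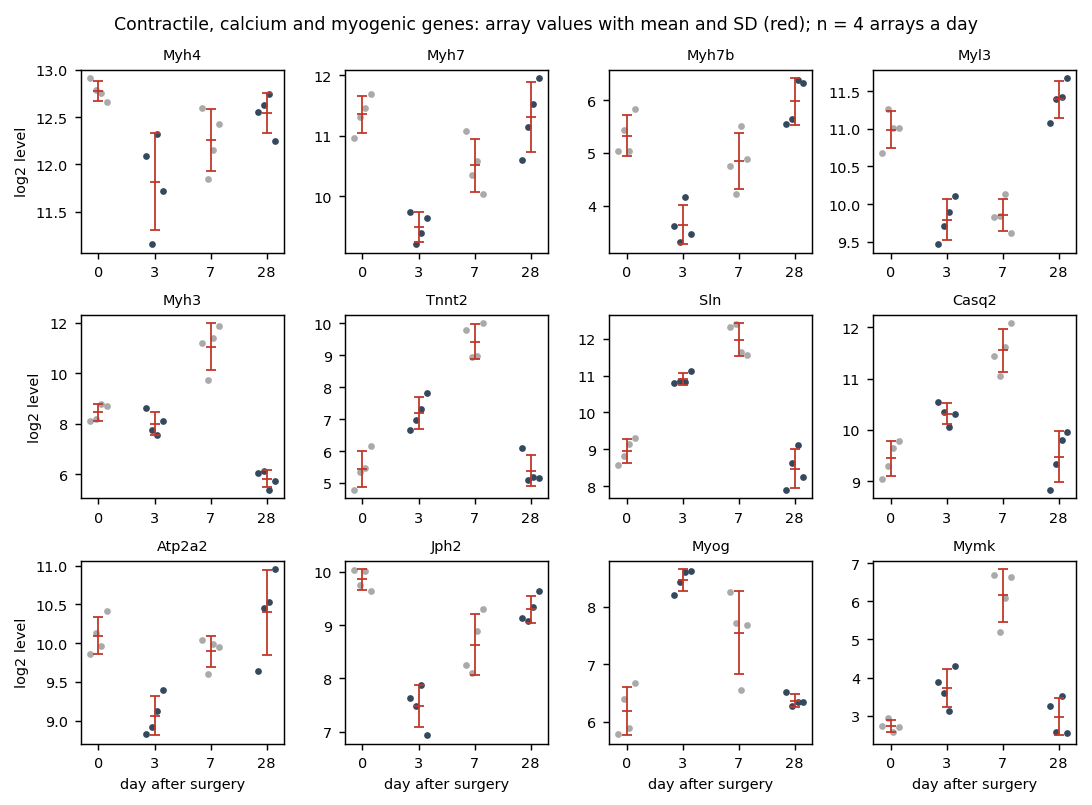
Log2 level of 12 contractile, calcium-handling and myogenic genes on each of the 16 arrays by day after surgery, with the mean and SD of the 4 arrays of a day in red. Myh7, Myl3, Atp2a2 and Jph2 are higher at day 28 than at day 3, whereas Myh3, Tnnt2, Sln, Casq2 and Mymk have their highest mean at day 7.

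Calcium release and uptake set how fast a fibre contracts and relaxes. Of the calcium handling genes, 2 of 14 measured members were called lower and 9 higher (median 0.87). The median level of the list was 9.98, 9.36, 10.08 and 9.85 at days 0, 3, 7 and 28. Jph2 and Jph1, which hold the tubule and store membranes together, rose by 1.81 ± 0.24 and 1.13 ± 0.16. The slow calcium pump Atp2a2 rose by 1.34 ± 0.22, the store sensor Stim1 by 1.20 ± 0.12, and Pln, which inhibits the pump, by 1.10 ± 0.30. Sln, another small inhibitor of the pump, went the opposite way, reading 10.80, 10.84, 10.83 and 11.13 at day 3 and 7.90, 8.63, 9.12 and 8.25 at day 28. Its days did not overlap, and it fell by 2.42 ± 0.25. The cardiac and slow calsequestrin Casq2 fell by 0.83 ± 0.25, a call lost without day 28 replicate 1 (-0.62, adjusted p = 0.0549) and when centred on all genes (-0.62, adjusted p = 0.0513), while its fast relative Casq1 rose by 0.68 ± 0.14. Ion channels of the fibre membrane gave 8 rises and 0 falls among 13. The channel subunits Kcnj11 (1.63), Kcna7 (1.45) and Kcnj2 (1.42), which pass potassium, and the muscle sodium channel Scn4a (1.18) were among them. The median level of the channel list was 8.94, 7.88, 7.99 and 8.64 at days 0, 3, 7 and 28. At the neuromuscular junction, 4 of 11 genes rose and 2 fell, beside 15.9% and 16.8% of all genes. Gadd45a, a stress gene also induced by denervation, fell by 2.30 ± 0.17, and the junction organisers Dok7 and Lrp4 rose by 0.82 ± 0.20 and 0.81 ± 0.17.

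Genes of energy metabolism were higher at day 28 than at day 3 across pathways. List medians of the day 3 difference from day 0 were -1.34 for glycolysis and -0.83 for the tricarboxylic acid cycle. They were -0.78 for fatty acid oxidation and -0.26 for oxidative phosphorylation. At day 28, in the same order, the medians against day 0 were -0.08, 0.08, 0.01 and 0.20. Plantaris fibres rely on glycolysis for short effort and on mitochondria for sustained work. In glycolysis and glycogen metabolism, 15 of 16 measured members rose and 0 fell (median 1.13), beside 15.9% of all genes. Under cyclic loess 11 rose. The list held 29 genes, and Gpi, Aldoa, Tpi1, Gapdh, Eno1 and Ldha were among those not measured. Fbp2 read 7.22, 6.93, 7.26 and 6.28 at day 3 and 9.67, 9.67, 9.48 and 8.83 at day 28, where the fourth array of each day was the lowest. Pfkfb1 rose by 2.22 ± 0.28, the glycerol phosphate dehydrogenase Gpd1 by 2.16 ± 0.28, the glycogen-breakdown kinase subunit Phkg1 by 1.94 ± 0.22, and glycogen synthase, Gys1, by 1.37 ± 0.18. Hk2, which traps glucose in the cell, was the member not called (-0.21 ± 0.15, adjusted p = 0.341).

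For the tricarboxylic acid cycle and pyruvate dehydrogenase, 20 of 21 measured members rose and 0 fell (median 0.82). Sucla2 (1.24 ± 0.14), Idh3a (1.21 ± 0.13), Sdha (1.09 ± 0.16) and Dld (1.03 ± 0.15), enzymes of the cycle, led, and Pdk4, the kinase that shuts pyruvate dehydrogenase, was not called (-0.29 ± 0.27, adjusted p = 0.468). Of the fatty acid oxidation genes and their regulators, 28 of 32 rose and 1 fell (median 0.85). Ppargc1a, the coactivator that drives mitochondrial biogenesis, read 7.50, 7.41, 7.64 and 7.02 at day 3 and 9.01, 9.14, 9.19 and 9.77 at day 28. All day 28 arrays were higher, and it rose by 1.88 ± 0.19. Its relative Ppargc1b rose by 1.65 ± 0.21, the nuclear receptor Ppara by 1.55 ± 0.21 and the acyl-CoA synthetase Acsl1 by 1.65 ± 0.20. The gatekeeper of fatty acid entry into mitochondria comes in 2 forms, and they diverged: the muscle form Cpt1b rose by 0.68 ± 0.12, and the liver form Cpt1a fell by 0.90 ± 0.20.

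Respiratory chain genes pass electrons to oxygen and drive synthesis of ATP. Of 42 measured oxidative phosphorylation genes, 25 rose and 2 fell (median 0.49), and under cyclic loess 16 rose. Atp5f1c (1.53 ± 0.19), Uqcrc2 (0.91 ± 0.13), Ndufs4 (0.95 ± 0.12) and Cyc1 (0.90 ± 0.14) were among those that rose. Both falls were in forms of cytochrome oxidase subunits that many tissues share, Cox6a1 (1.08 ± 0.14) and Cox8a (0.92 ± 0.16). The striated muscle forms were not called: Cox6a2 differed by 0.19 ± 0.10, adjusted p = 0.192, and Cox8b by 0.33 ± 0.17, adjusted p = 0.153. Beside these rises, the summed level of macrophage markers was lower at day 28 as given above and that of the shared sarcomere genes ran from 48288 to 56198 at day 3 and 64136 to 65127 at day 28. The part of a changed cell mix in the metabolic rises was not tested.

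Ribosome biogenesis and protein folding genes were lower at day 28 in part. Among ribosome biogenesis genes, which growing muscle uses to enlarge its translation capacity, 11 of 22 measured members were called lower and 0 higher, or 8 lower and 3 higher when centred on all genes. Myc, a driver of that programme, fell by 2.37 ± 0.27, the nucleolar methyltransferase Fbl by 1.24 ± 0.18, and Ncl was not called (-0.36 ± 0.15, adjusted p = 0.085). For the unfolded protein response and secretory chaperones 12 of 18 measured members were called lower and 1 higher, with Sdf2l1 (-2.72), Pdia6 (-1.43) and Sec61b (-1.42), which serve the endoplasmic reticulum, in front. Ddit3, a stress transcription factor, rose by 0.78 ± 0.16. Proteasome genes gave 9 falls and 0 rises among 27 as deposited, 3 falls when centred on all genes and 17 under cyclic loess. Of amino acid transporters and ATF4 targets, 6 of 16 fell and 4 rose, the leucine carrier Slc7a5 falling by 2.49 ± 0.19 and the mitochondrial folate enzyme Mthfd2 by 2.01 ± 0.18, while Vldlr rose by 1.28 ± 0.15.

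Atrophy ligases and autophagy genes gave 6 rises and 3 falls among 16, beside 15.9% of all genes called higher and 16.8% lower. The atrophy ligase Trim63 fell by 0.49 ± 0.14, a call lost when centred on all genes, and its partner Fbxo32 was not called (-0.08 ± 0.20, adjusted p = 0.807). The ligase Fbxo21 rose by 1.03 ± 0.18 and Ulk1, a kinase that starts autophagy, by 0.90 ± 0.14.

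Genes known to respond to stretch and load were mostly lower after 28 days of load than after 3 days. Among heat shock genes and sarcomere genes that respond to load, 11 of 17 measured members were called lower and 0 higher, or 3 higher when centred on all genes (median -0.68). The median level of the list was 9.50, 10.97, 10.58 and 9.46 at days 0, 3, 7 and 28. Ankrd1, a stretch-sensing protein of the sarcomere, read 11.97, 11.99, 11.70 and 12.19 at day 3 and 9.12, 8.48, 9.15 and 8.71 at day 28. The lowest day 3 array lay more than 2 units above the highest day 28 array, the fall was 3.10 ± 0.18 (adjusted p = 5.22e-09), and the day 0 and day 7 means were 9.21 and 12.01. Ankrd2, a relative, fell by 1.49 ± 0.37, the muscle LIM protein Csrp3 by 1.28 ± 0.22, and the small heat shock proteins Hspb1 and Cryab by 1.51 ± 0.17 and 0.80 ± 0.11. At day 28 Ankrd2 read 8.49 on replicate 2, below the others' 10.11 to 10.43.

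Growth factor lists changed about as often as genes in general, 15.9% of which were called higher and 16.8% lower. In the TGF-beta, activin and BMP list 5 of 26 rose and 5 fell as deposited, and 9 rose and 2 fell when centred on all genes. Without day 3 replicate 4, 3 fell. Tgfb1 and its binding protein Ltbp2 (-1.79) fell, and Bmp4 (0.75) and the receptor Bmpr1a (0.62) rose. Mstn, myostatin, which limits muscle size, differed by 0.81 ± 0.31, adjusted p = 0.0574. It was called higher without day 3 replicate 3 (1.03) or day 28 replicate 4 (1.00) and under 5 other settings. In the insulin-like growth factor list 3 of 13 rose and 2 fell. Irs1, an adaptor of the insulin receptor, rose by 1.22 ± 0.22, the receptor Insr by 1.04 ± 0.16, and the binding protein Igfbp4 fell by 1.39 ± 0.27. Irs2 rose by 0.84 ± 0.30, a call lost without day 3 replicate 1, 2 or 4 or day 28 replicate 1 or 4.

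Endothelial genes were mostly higher at day 28 than at day 3. Of the endothelial markers, 11 of 16 measured out of 22 listed rose and 1 fell (median 0.99). Pecam1, Kdr, Eng, Ptprb, Robo4 and Vegfa were not measured. The median level of the list was 5.73, 5.36, 5.38 and 5.85 at days 0, 3, 7 and 28. Cdh5, the cadherin of endothelial junctions, read 5.95, 6.38, 6.72 and 6.68 at day 3 and 8.03, 7.93, 8.27 and 8.83 at day 28, all higher, and rose by 1.83 ± 0.21. The lymphatic regulator Prox1 rose by 1.65 ± 0.27, the growth factor receptor Flt1 by 1.28 ± 0.25, and the transcription factor Erg by 1.15 ± 0.18. Lyve1, a lymphatic gene that macrophages also carry, was the member that fell (2.65 ± 0.27). Tie1 (-0.40 ± 0.19, adjusted p = 0.116) and Esam (-0.32 ± 0.24, adjusted p = 0.36) were not called. The summed level of the list ran from 1939 to 2394 at day 3 and 1606 to 2608 at day 28. Pericyte and smooth muscle genes gave 5 rises and 0 falls among 10, with Lmod1 (1.31, dim at day 3) and Kcnj8 (1.12).

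Among adipocyte genes 6 of 13 rose and 2 fell, beside 15.9% and 16.8% of all genes. Adipoq, the hormone adiponectin, rose by 1.75 ± 0.28, and Scd, a fatty acid desaturase, by 1.38 ± 0.40. Those that fell were Cebpa (-2.13) and Cfd (-1.35), which myeloid cells also express. The part of other cell types in these rises and falls was not tested. Of 6 Schwann cell genes, 3 were dim on both days. Egr2 (-1.02), which the tenocyte list also holds, and Sox10 (-0.58) fell. Sox10 was dim on both days and lost its call without day 3 replicate 1 or 3 or day 28 replicate 1 or 4. That call was also lost with array weights, when only days 3 and 28 were fitted and when centred on all or on the brighter genes.

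**Figure D5:**
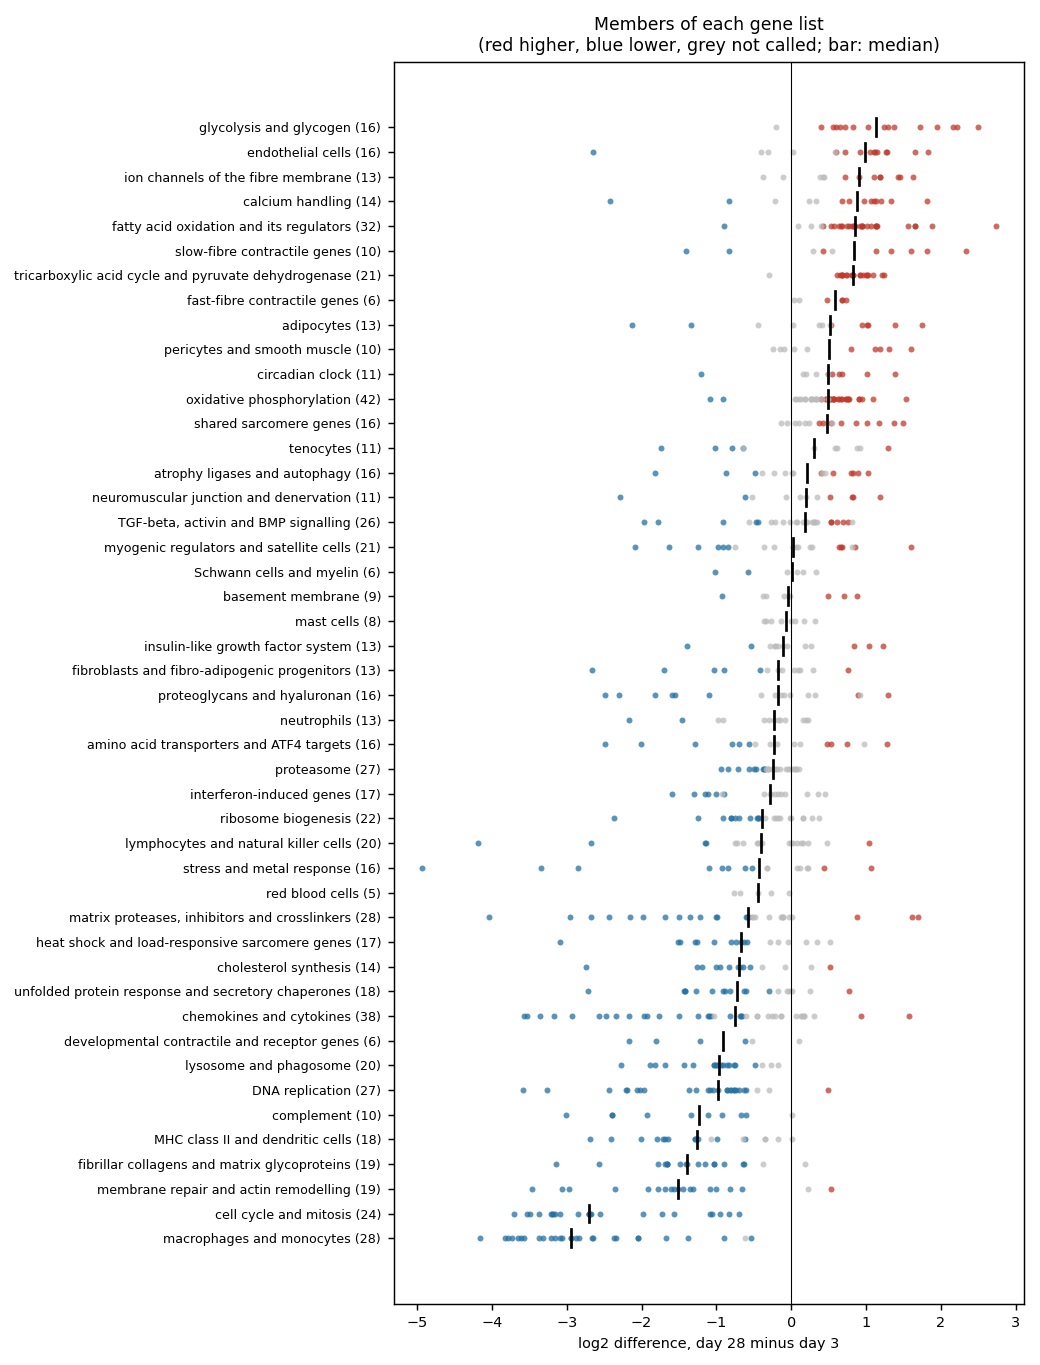
Log2 difference, day 28 minus day 3, of each measured member of the 46 gene lists, with a bar at each list's median and the number of members in brackets. Macrophage and cell cycle genes lie farthest left and glycolysis and endothelial genes farthest right by their medians, and some lists hold members on both sides.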

How the data were processed

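RNA of 16 plantaris samples was hybridised to 16 arrays, 4 at each of days 0, 3, 7 and 28. The authors deposited log2 expression values for 36685 transcript clusters; the submitters' processing notes name oligo, RMA and limma. Their versions and order, and any genome build, are not given in the sources used here. Arrays have no read depth, so their number limits the precision. The platform annotation gave 1 symbol for 14824 clusters, several for 829 and none for 21032. After keeping the brightest cluster of 234 genes with several, 14557 remained, of which 14417 matched RefSeq (GRCr8) by gene ID.

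Group means over all 16 arrays were fitted with limma 3.58.1 in R 4.3.3 (empirical Bayes, no trend, 12 residual and 4.99 prior degrees of freedom). Day 28 minus day 3 was tested two-sided, with Benjamini-Hochberg adjustment over 14557 genes at 0.05. On simulated data of 14557 genes, with 50 changed per size, the fit recovered 20%, 64%, 98% and 100% of genes changed by log2 0.5, 1, 1.5 and 2. Of 154 calls, 13 were false. Far fewer genes were changed there than the 4759 called in the data, and the noise was independent between genes. Adjustment was therefore stricter in the simulation, so these rates do not give the sensitivity of the real comparison.

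The gene lists (46, with 767 of 1068 genes measured) and members were chosen with earlier results of these data known, so lists were described by counts and medians, not tested. Lists overlap, and some genes, such as Egr2, Kera and Lyve1, are counted in several. Named genes were the 15 largest rises and 15 largest falls among called genes whose arrays did not overlap, passing over predicted genes. Added to these were up to 4 leading and up to 2 opposing called members of each list, a panel of 41 genes and the members of the fibre lists. Other list members were named, with their values, after these were seen. Alternatives covered the filter on dim genes, array centring, cyclic loess, array weights, intensity trend, the cluster rule, the arrays fitted, a stricter threshold, a replicate block and leaving out each array. Promoters came from RefSeq's table of 33469.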

Additional observations from a re-analysis of the deposited data

Results flagged for a closer look

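Within each day, 466 groups of 4 arrays (the named genes at days 3 and 28) were searched for an array set apart from the other 3 by more than Dixon's 95% critical value for 4 samples, and 26 groups held one, where chance gives about 1 in 20 groups. All values are log2 levels.

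At day 3 the regulator Ppargc1b was 5.37 on replicate 4, below the others' 5.66 to 5.71. The calcium store protein Casq1 was 10.92 on replicate 4, below the others' 11.40 to 11.43. The pump inhibitor Sln was 11.13 on replicate 4, above the others' 10.80 to 10.84, and the lubricating Prg4 was 10.33 on replicate 4, above the others' 9.78 to 9.85. The fast troponin Tnnc2 was 13.11 on replicate 4, below the others' 13.24 to 13.25. On the third array, Trim63 was 10.65 on replicate 3, above the others' 10.37 to 10.41, the growth factor receptor Met was 7.46 on replicate 3, above the others' 7.05 to 7.11, Smad2 was 7.06 on replicate 3, below the others' 7.27 to 7.28 and Slpi was 5.91 on replicate 3, below the others' 6.81 to 6.99. Elsewhere at day 3, Cd6 was 4.23 on replicate 1, below the others' 4.81 to 4.92, Col4a1 was 7.90 on replicate 2, above the others' 7.42 to 7.47 and Sh2d1b was 7.11 on replicate 2, above the others' 6.78 to 6.82.

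At day 28 Perm1 was 9.99 on replicate 4, above the others' 9.35 to 9.43. Ppargc1b was 7.54 on replicate 4, above the others' 7.13 to 7.19, the same replicate number that stood apart in this gene at day 3, although the numbers do not pair the arrays. Timp4 was 7.65 on replicate 4, above the others' 6.94 to 6.99 and Cdca3 was 1.98 on replicate 4, below the others' 2.24 to 2.28. On the first array, Tnnt2 was 6.10 on replicate 1, above the others' 5.09 to 5.19, the slow troponin Tnnc1 was 10.66 on replicate 1, below the others' 11.20 to 11.22, Omd was 6.84 on replicate 1, above the others' 6.28 to 6.33, Tgfb1 was 6.46 on replicate 1, above the others' 6.13 to 6.18 and Psma5 was 8.65 on replicate 1, above the others' 8.33 to 8.38. On the second, Ankrd2 was 8.49 on replicate 2, below the others' 10.11 to 10.43, Rrad was 5.40 on replicate 2, below the others' 6.41 to 6.44 and Rrm2 was 2.82 on replicate 2, below the others' 4.26 to 4.56. On the third, Cx3cr1 was 2.55 on replicate 3, below the others' 3.15 to 3.22 and Mcm3 was 4.39 on replicate 3, above the others' 3.67 to 3.78.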

How the results depend on the processing

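As deposited, 4759 genes were called. Centring on all genes tested called 6008, of which 4226 were higher. Testing all 36685 transcript clusters called 8456, 4602 higher and 3854 lower, with 3558 at least 2-fold, since more features entered. Leaving out 1 array at a time gave 4194 to 4677 called, 1981 to 2218 higher, 2183 to 2459 lower and 1481 to 1810 at least 2-fold. No gene called under both the deposited values and any of 19 other settings that tested these genes, or part of them, changed sign. Under cyclic loess, 3 bright muscle genes turned from a small rise that was not called to a called fall, Acta1 (-0.36), Tnnc2 (-0.35) and Tnnt3 (-0.27); the cause was not tested. Without the dimmest 50% of genes, 5 cell cycle genes and 10 chemokine or cytokine genes were called lower because the filter removed the others. Replicate numbers recur between days, but arrays with the same number did not deviate together (r across genes of 0.06, -0.02, 0.01 and 0.03). With the number as a fixed replicate block 4811 genes were called and as a random block 4786 (consensus correlation 0.00736), and the fixed block ended the call of Irs2 (adjusted p = 0.0551) among the named genes. An array reading under the median of all clusters gives only a bound, which limits 411 of the falls and 234 of the rises. The labels used here name no batch, so a batch that moved with the day was not tested.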

Other observations

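Synthesis of cholesterol, which new membranes need, moved with the early phase. Of 14 genes of that list 10 fell and 1 rose (median -0.70). Sqle, the squalene epoxidase, fell by 2.74 ± 0.31, from 6.70 to 3.96, Msmo1 by 1.27 ± 0.20 and Ebp by 1.19 ± 0.20, while Fdft1, which makes squalene, rose by 0.51 ± 0.11. Day 7 lay nearer to day 28 in 10 of the 10 that fell. Of 11 circadian clock genes 6 rose and 1 fell. Per3 rose by 1.38 ± 0.19 and Cry1 by 1.01 ± 0.18, both repressors of the clock, and Nfil3, a repressor that opposes clock activators, fell by 1.21 ± 0.24. The time of day of tissue collection was not given in the labels, so its part was not tested.

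Few genes set day 28 apart from every other array. In 91 genes (0.625%) all 4 day 28 arrays lay above the other 12, and in 28 (0.192%) below. The genes named here were chosen after their values were seen. Above them stood Nppc, which encodes the C-type natriuretic peptide, with means of 5.32, 4.36, 5.32 and 6.56 at days 0, 3, 7 and 28. The receptor tyrosine kinase Ret read 5.29, 4.66, 5.29 and 6.27, and Myoc, myocilin, 7.38, 6.96, 7.42 and 8.52. At day 3 Myoc read 8.06, 7.04 and 7.74 on replicates 1 to 3 and far lower on replicate 4. Without replicate 4 its day 3 mean was 7.61 and its rise 0.90 instead of 1.56. Below stood Myh3 and Ccn1, a matricellular protein induced by stretch, at 8.57, 9.25, 9.94 and 7.51. Pvr, an adhesion receptor, read 6.91, 9.10, 8.44 and 6.10.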
